A study of Sus scrofa with 14 samples.

Results

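KCNJ5 and ADRA2B are a potassium channel gene and an adrenergic receptor gene whose signal in the piglet jejunum was higher after perfusion with onion digest than after perfusion with the saline digest control, KCNJ5 with both onions and ADRA2B with yellow onion. KCNJ5 encodes a subunit of the G protein-gated inward rectifier potassium channel. ADRA2B encodes the alpha-2B adrenergic receptor. They are 2 of the 3020 genes that could be named on the array. A probe belonged to them when the RefSeq accession in its scanner record was that of KCNJ5 or ADRA2B. This gave 1 probe for each gene, A_72_P078031 for KCNJ5 and A_72_P302739 for ADRA2B, so 2 of 43603 probes. The genes were chosen from these arrays, ADRA2B for its increase in the YOd pigs and KCNJ5 for its increase in the pigs of both onions. Their own onion values are therefore given as a description without a test, except for ADRA2B in the WOd pigs, which did not serve for its choice. Where either gene is said to pass or miss the thresholds, this only describes how its values depend on pigs and processing. It is no support, since the same values chose the genes.

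The 14 arrays came from 7 male piglets, 5 weeks old and weighing 8.2 kg. Under anaesthesia, lengths of jejunum between an inflow and an outflow tube were perfused in situ for 6 h with blood supply and innervation intact (the small intestinal segment perfusion or SISP model). They lay between 31% and 58% of the length of the small intestine and were first filled with 20 ml of fluid. In pigs 1, 2 and 4, a segment with yellow onion digest (YOd, n = 3) was set against a segment with saline digest (Sd) of the same pig. In pigs 5, 6, 7 and 8, a segment with white onion digest (WOd, n = 4) was set against Sd (n = 7 in all). Sd was made by the same in vitro digestion, with enzymes and bile salts but with a salt solution in place of onion. The onion digests were then diluted in peptone and Sd was diluted further, in saline solution, so the effects of onion, of the diluent and of the dilution cannot be told apart. RNA was taken from scrapings of the mucosa, and each pig gave 1 array per treatment. Pig 3 was not analysed here.

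Gi-coupled receptors release the beta and gamma subunits of their G protein when they bind their ligand. These subunits open G protein-gated potassium channels, which moves the membrane away from its firing threshold. KCNJ5 is best known from the atrium of the heart, where such channels mediate vagal slowing, and from the aldosterone-producing cells of the adrenal gland. ADRA2B is a Gi-coupled receptor for noradrenaline and adrenaline, the transmitters of the sympathetic nerves. In the small intestine, alpha-2 adrenergic signals reduce secretion and favour the uptake of salt and water.

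The scanner files gave the processed signal of each spot, an intensity after background subtraction. On a single array, 50.05% to 70.7% of probes stood well above background, and the local background had a median of 19 to 21. Precision is limited by the number of arrays. For the ratios, each array was scaled by its own 75th percentile, low values were raised to a common floor (a log2 value of -4.43, the 40th percentile of all arrays together), and log2 values were taken. Differences were fitted in limma, each pig forming a block. The SE given with a log2 fold change is the moderated one of limma, which draws the variance of a gene towards that of all genes. It is therefore not the spread of that gene between pigs. A gene was called raised when its unadjusted p was under 0.05 and it was more than 1.5-fold higher. With this rule, 88 genes were raised and 23 lowered in YOd/Sd, 19 raised and 10 lowered in WOd/Sd, and 23 raised and 7 lowered over the 7 pigs. This balance depended on the scaling: with no scaling between arrays, 7 of 102 called genes were raised in YOd/Sd, 15 of 24 in WOd/Sd and 4 of 16 over the 7 pigs. No gene of any comparison passed after Benjamini-Hochberg adjustment in limma, where 274, 67 and 169 genes had an unadjusted p below 0.05. With fewer pigs some did, 77 in YOd/Sd without pig 2 (pigs 1 and 4 left), 2 in WOd/Sd without pig 7 and 14 over the pigs without both.

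The tissue was checked against markers of the enterocyte, the absorptive cell of the mucosa. All 7 enterocyte markers that could be measured (FABP1, FABP2, APOA1, APOA4, ANPEP, SLC5A1 and DPP4) were above the floor. Their summed signal was 613 to 1256 times the 75th percentile on Sd arrays, 854 to 1239 times on YOd arrays and 880 to 1163 times on WOd arrays. These ranges follow the 75th percentile itself, which was 385 to 795 over the arrays, so they do not compare enterocyte content. In pig 4 the log2 ratio of the sum was 0.61, where the 75th percentile was 515 on YOd and 795 on Sd. On each array 545 to 964 probes were saturated, and whether these 7 were among them is not reported here. In scrapings, fewer cells of a type and less RNA per cell cannot be told apart.

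Both probes were dim. The KCNJ5 probe was well above background on 13 of 14 arrays, the exception being Sd of pig 8. On each array it was brighter than 38.0% to 60.1% of all probes. Its median pixel was 2.89 to 7.88 times the local background around the spot. The distance to the background was 3.88 to 13.4 standard deviations (SD) of the background pixels on Sd arrays, 9.84 to 14.3 SD on YOd arrays and 6.32 to 10.9 SD on WOd arrays. No KCNJ5 or ADRA2B spot was saturated or an outlier.

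The ADRA2B probe was well above background on 12 of 14 arrays, the exceptions being Sd of pigs 1 and 8. On Sd of pig 8 its signal of 10.8 was smaller than the error of 10.9 that the scanner software gave it. Its distance to the background was 2.59 to 10.9 SD on Sd arrays, 8.58 to 12.8 SD on YOd arrays and 4.12 to 10.8 SD on WOd arrays. The ADRA2B probe was thus well above background on all 7 onion arrays and on 5 of 7 Sd arrays. The Sd array of pig 8 had 50.05% of probes well above background and 462 outlier spots. The WOd array of this pig had 66.5% and 59. The dimmest probe well above background had a signal of 54.7 on that Sd array and 12.1 on that WOd array. In pig 8 the count therefore does not compare the treatments.

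**Figure D1:**
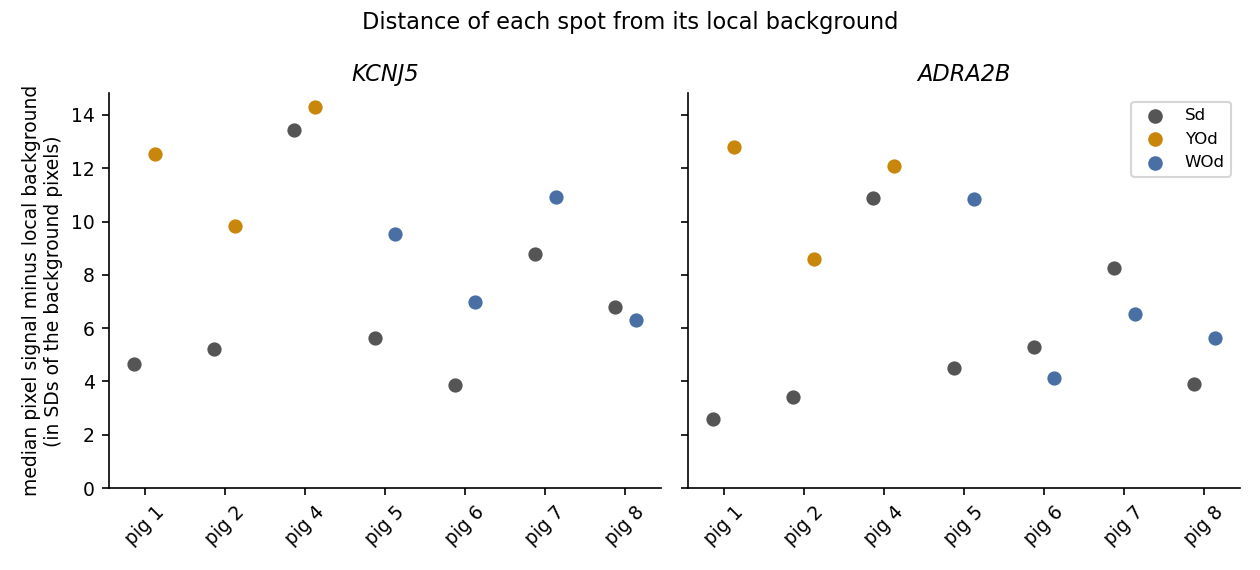
Distance of the KCNJ5 spot (left) and the ADRA2B spot (right) from the local background in each pig, as median pixel signal minus local background in SDs of the background pixels, with 1 point per array (Sd grey, YOd orange, WOd blue). The lowest point is ADRA2B on Sd of pig 1, at 2.59 SD, and in pig 8 the KCNJ5 spot was nearer to the background on the WOd array (6.32 SD) than on the Sd array (6.81 SD).

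KCNJ5 had a processed signal of 25.4 on Sd and 92.7 on YOd in pig 1. In pig 2 the values were 30.1 and 72.2, and in pig 4 they were 117 and 114. The Sd array of pig 4 was the brightest of all 14 arrays for KCNJ5, so the YOd and Sd arrays overlapped. In the WOd pigs, KCNJ5 went from 35.4 on Sd to 61.0 on WOd in pig 5 and from 21.3 to 47.9 in pig 6. It went from 57.8 to 71.3 in pig 7 and from 30.6 to 38.7 in pig 8. Within each of these 4 pigs the WOd array was higher, although the 4 WOd arrays overlapped with their 4 Sd arrays.

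On the log2 scale after scaling and flooring, the onion over Sd ratios of KCNJ5 in the YOd pigs 1, 2 and 4 were, in order, 2.05, 1.38 and 0.58. In the WOd pigs 5 to 8 the ratios of KCNJ5 were, in order, 0.70, 1.03, 0.38 and 0.52. KCNJ5 was thus above Sd in 7 of 7 pigs, where 1.62% of the 2400 genes tested were. Without the floor, its ratio exceeded 2 times the error that the scanner software gave the spots in 5 of 7 pigs. In pigs 7 and 8 it was 1.49 and 0.94 times that error, so these increases were not resolved. Sd of pig 6 was at the floor, and without the floor its ratio was 1.12. The fitted log2 fold change of KCNJ5 was 1.34 (SE 0.27) in YOd/Sd, where its increase ranked 6 of 2449 genes and 3.59% of genes were called raised. It was 0.66 (SE 0.16) in WOd/Sd, rank 28 of 2429 genes, with 0.782% called raised. Without pig 6 it was 0.53 and not past the thresholds. Over the 7 pigs, which share all arrays with the former comparisons, it was 0.95 (SE 0.19), rank 6 of 2400, with 0.958% called raised. The medians of all genes tested were 0.14, 0.05 and 0.09 in these comparisons. The log2 ratios of KCNJ5 had an SD of 0.74 over the 3 YOd pigs, 0.28 over the 4 WOd pigs and 0.59 over the 7 pigs. Whether the YOd and WOd values of KCNJ5 differ was not tested.

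**Figure D2:**
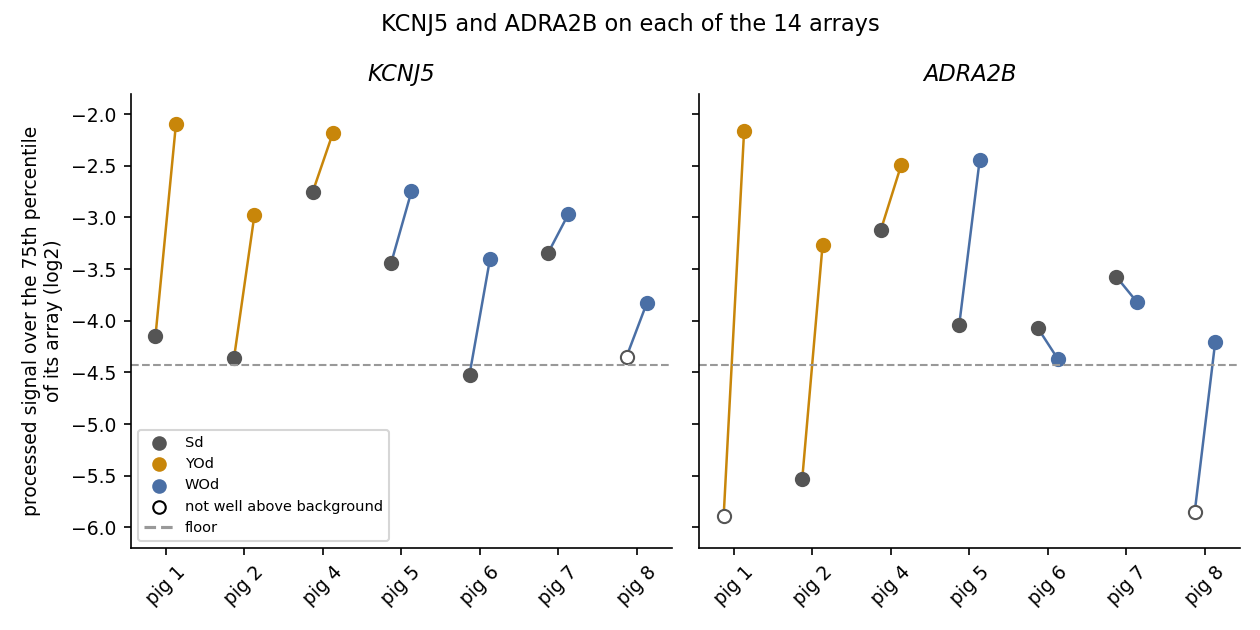
Processed signal of KCNJ5 (left) and ADRA2B (right) scaled by the 75th percentile of the array, on the log2 scale without the floor, with the Sd and the onion array of each pig joined by a line. Open points are spots not well above background and the dashed line is the floor of -4.43. All 7 KCNJ5 lines go up, while the ADRA2B lines of pigs 6 and 7 go down.

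ADRA2B had a processed signal of 7.61 on Sd and 88.8 on YOd in pig 1. In pig 2 it had 13.3 and 59.2, and in pig 4 it had 91.1 and 91.4. As for KCNJ5, pig 4 had the brightest Sd array, and there both segments gave nearly the same signal. In the WOd pigs, ADRA2B went from 23.4 on Sd to 75.1 on WOd in pig 5 and from 10.8 to 29.6 in pig 8. It went from 29.2 to 24.4 in pig 6 and from 49.3 to 39.6 in pig 7. The WOd and Sd arrays of ADRA2B overlapped, and the direction differed between pigs.

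For ADRA2B, the scaled and floored log2 ratios of the YOd pigs 1, 2 and 4 were 2.27, 1.17 and 0.63. All 3 YOd pigs were above Sd, as were 33.4% of the 2449 genes tested in YOd/Sd. In the WOd pigs 5 to 8 it was, in order, 1.59, -0.30, -0.24 and 0.22. Sd of pigs 1, 2 and 8 was at the floor. Without the floor the ratios of these pigs were 3.73, 2.27 and 1.64, so their size rests on spots at or near the background. The ratio without the floor exceeded 2 times its error from the scanner software in 4 of 7 pigs. In pig 8 it was 1.12 times that error. The fitted log2 fold change was 1.36 (SE 0.30) in YOd/Sd, rank 5 of 2449, and 0.76 (SE 0.29) over the 7 pigs, rank 9 of 2400. Without pig 1 the latter was 0.51, without pig 2 it was 0.69 and without pig 5 it was 0.62, each short of the thresholds. The log2 ratios of ADRA2B had an SD of 0.84 over the 3 YOd pigs and 0.96 over the 7 pigs.

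In WOd/Sd, the comparison that did not serve to choose ADRA2B, its log2 fold change was 0.32 (SE 0.32), rank 184 of 2429. It did not pass the test (limma adjusted p = 0.999). It was above Sd in 2 of 4 pigs. Of all genes tested in WOd/Sd, 6.18% were above Sd in each of the 4 pigs, and KCNJ5 was among them. Without pig 5, the log2 fold change of ADRA2B turned to -0.11 (limma adjusted p = 0.994, over all alternatives 0.926 to 1).

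Both genes had the same order of mean levels over the groups. On the scaled and floored log2 scale, KCNJ5 had a mean of -2.42 ± 0.49 in YOd (SD, n = 3), -3.24 ± 0.48 in WOd (SD, n = 4) and -3.83 ± 0.65 in Sd (SD, n = 7). ADRA2B had -2.64 ± 0.56 in YOd (SD, n = 3), -3.71 ± 0.87 in WOd (SD, n = 4) and -4.01 ± 0.50 in Sd (SD, n = 7). YOd and WOd came from different pigs. The arrays of neighbouring groups in this order overlapped for both genes, so the order of YOd and WOd does not exceed the spread between pigs. Onion and Sd arrays were paired by pig, which this overlap ignores. Within pigs, KCNJ5 was above Sd in 3 of 3 YOd pigs and 4 of 4 WOd pigs, and ADRA2B in 3 of 3 and 2 of 4.

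The size of the ratios depended on the scaling in pig 4 and, in all pigs, on the background correction with its offset. The 75th percentile of the Sd array of pig 4 was 795 and that of its YOd array 515. Without scaling, the log2 ratio in pig 4 was -0.05 for KCNJ5 and 0.01 for ADRA2B, so the increase in this pig came with the division by the 75th percentile. In the fits without scaling, all genes tested had a median log2 fold change of -0.16 in YOd/Sd, 0.01 in WOd/Sd and -0.06 over the 7 pigs. The fitted log2 fold changes beside these medians were 1.03, 0.60 and 0.78 for KCNJ5 and 1.06, 0.34 and 0.65 for ADRA2B. In the other 6 pigs the unscaled ratios had the sign of the scaled ones for both genes. Normexp background correction was run with an offset of 50, which by itself draws the log2 ratios of dim spots towards 0. With it, the KCNJ5 ratios were 0.09 to 1.01, above 0 in 7 of 7 pigs. Correction and offset were not separated.

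A plainer reading of the spots was added after the data had been seen, the median pixel minus the local background without scaling. By this measure KCNJ5 went from 46.0 to 124 in pig 1, from 53.5 to 96.0 in pig 2 and from 165 to 144 in pig 4. In the WOd pigs 5 to 8 it went from 56.0 to 88.5, from 36.0 to 66.0, from 87.0 to 117 and from 68.0 to 61.0. KCNJ5 was above Sd in 5 of 7 pigs by this reading, and in 7 of 7 once divided by the 75th percentile. ADRA2B was above Sd in 4 of 7 pigs, and in 5 of 7 after the division. The local background itself was 19 to 24 around all spots of both genes.

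**Figure D3:**
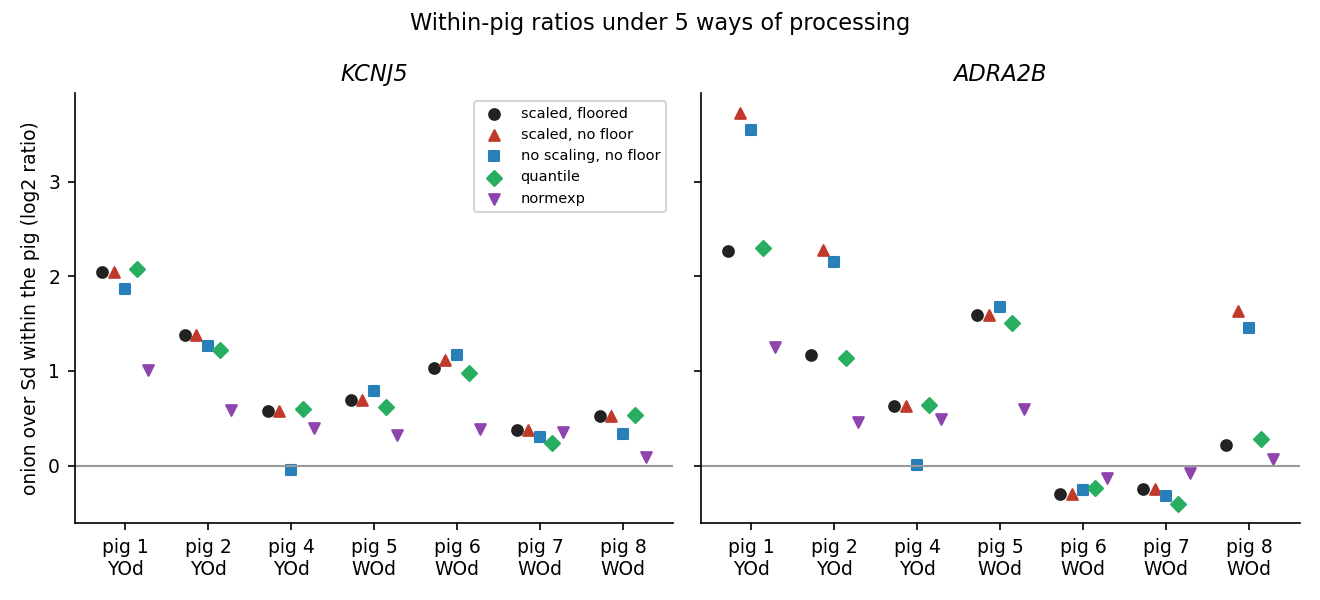
Log2 ratio of onion over Sd within each pig for KCNJ5 (left) and ADRA2B (right), with 1 marker per way of processing (scaled and floored, scaled without floor, neither scaled nor floored, quantile normalisation, normexp background correction). The KCNJ5 markers lie above 0 apart from the unscaled one of pig 4 (-0.05), and the ADRA2B markers of pigs 6 and 7 lie below 0 under all 5.

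The arrays lay on 5 slides. In 5 pigs both arrays shared a slide, and there the mean log2 ratio was 0.97 for KCNJ5 and 0.88 for ADRA2B. In pigs 2 and 7 the arrays lay on different slides, with log2 ratios of 1.38 and 0.38 for KCNJ5 and 1.17 and -0.24 for ADRA2B. The Sd arrays of these pigs were also the only ones from the second of 2 scan sessions. In pigs 2 and 7, treatment, slide and scan session therefore cannot be told apart.

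KCNJ5 and ADRA2B had the most similar pattern to each other among the named genes. Over the 14 arrays, Pearson's r of the floored log2 values was 0.89, the highest of the 2399 genes compared for either. This value is a description, since the 2 arrays of a pig are not independent and both genes were chosen for the same contrast. On the 7 Sd arrays alone r was 0.90 (Spearman's rho 0.74), which fell to 0.51 without the 2 arrays farthest from the median of KCNJ5. On those 5 arrays r was 0.38 without the floor and -0.11 without scaling, so the relation among the Sd arrays rests on the 2 left out. After ADRA2B, the genes most like KCNJ5 were CYP17A1 (r 0.81), STRA6 (0.76), AQP2 (0.75) and SLC16A1 (0.73). Those most like ADRA2B after KCNJ5 were CYP17A1 (0.84), PNPLA3 (0.81), SLC16A1 (0.76) and MPI (0.75). CYP17A1 encodes a steroid hydroxylase of adrenal gland and gonads, and AQP2 the water channel of the kidney collecting duct.

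The probes of KCNJ5 and ADRA2B were also neighbours on the array. The KCNJ5 spot was in row 201 and column 73, and the ADRA2B spot in row 198 and column 72, of 384 rows and 164 columns, at the same place on all 14 arrays. Their centres lay 30.8 to 32.8 µm apart. The CYP17A1 spot lay 66.1 µm from that of KCNJ5, the AQP2 spot 48.5 µm and the STRA6 spot 183 µm. The spots of MPI and PNPLA3 were 1857 and 2586 µm away. SLC16A1 had 3 probes, of which the one that stood for the gene lay 2048 µm away and another, with an r of 0.80 with KCNJ5, 1352 µm away.

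The similar spots were denser near both probes. Of the 11 spots within 50 µm of KCNJ5 with values above the floor on at least 7 arrays, 2 (18.2%) had an r above 0.7 with it. The share was 12.9% of 31 spots from 50 to 100 µm, 2.96% of 135 from 100 to 200 µm and 0.221% of 22606 beyond 800 µm. For ADRA2B it was 14.3% of 14 spots, 6.45% of 31, 2.24% of 134 and 0.261% of 22598 at these distances. These shares include KCNJ5 and ADRA2B for each other. The distances were set after the pattern had been seen. The median r of the spots was 0.13 within 50 µm of KCNJ5 and 0.08 beyond 800 µm, and for ADRA2B it was 0.21 and 0.10.

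The probe most like ADRA2B among all probes was A_72_P082091, which carries no RefSeq accession. It lay 31.5 µm from ADRA2B, in the same row, with an r of 0.96. In the YOd pigs its log2 ratios were 3.01, 1.66 and 0.29 (pigs 1, 2 and 4). In the WOd pigs they were 1.24, -0.18, -0.29 and 0.77 (pigs 5 to 8), with the sign of ADRA2B in each pig. The probe most like KCNJ5 was A_72_P410543, 168 µm away, with an r of 0.92. Its log2 ratios were 2.65, 0.85 and 0.92 in the YOd pigs and 0.54, 0.45, 0.27 and -0.02 in the WOd pigs, in the same order. The next after it, A_72_P228392, lay 2664 µm away and had an r of 0.89 with each of both genes. Of the 20 probes most like KCNJ5, 4 lay within 100 µm, as did 0.165% of all spots, and of the 20 most like ADRA2B it was 3, beside 0.177%. The median distance of these 20 was 1025 µm for KCNJ5 and 1070.4 µm for ADRA2B, beside 1699 and 1700 µm over all spots. Most of the 20 were thus not neighbours, although they lay nearer than spots in general.

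**Figure D4:**
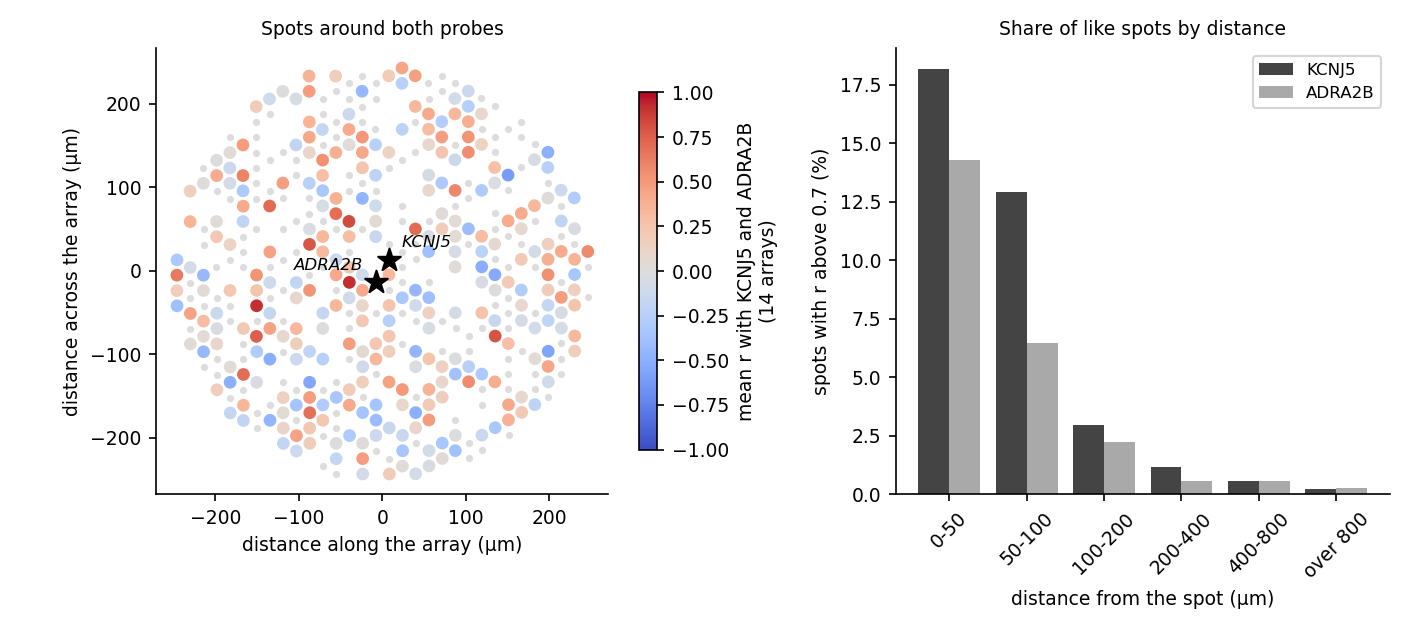
Left, the spots within 250 µm of the midpoint between the KCNJ5 and ADRA2B spots (stars), with axes in µm on the array and the colour giving the mean r with both over 14 arrays (small grey points are spots above the floor on fewer than 7 arrays). Right, the percentage of spots with an r above 0.7 by distance from KCNJ5 (dark) and ADRA2B (light), which falls from 18.2% and 14.3% within 50 µm to 0.221% and 0.261% beyond 800 µm.

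When every probe was fitted, with or without a gene name, 5 of the 45 other probes within 100 µm of the midpoint of both spots were called raised in YOd/Sd. Over all probes it was 2.47%. From 100 to 200 µm it was 11 of 140 probes, and beyond 400 µm it was 610 of 25513. In WOd/Sd, 0 of 48 probes within 100 µm were called raised in limma, and 0 had an unadjusted p under 0.05, where 0.869% of all probes were called raised. Over the 7 pigs it was 2 of 45, where 0.578% of all probes were. An unadjusted p under 0.05 was found for 10 of the 45 probes in YOd/Sd, 8 of them higher, and for 4 of the 45 over the 7 pigs, all of them higher. Within 100 µm of KCNJ5, the median log2 ratio of the 42 other spots was between -0.07 and 0.23 in each pig. The ratio of KCNJ5 was reached by 2, 1 and 12 of them in pigs 1, 2 and 4, and by 6, 1, 12 and 6 in pigs 5 to 8. Around ADRA2B the median of the 45 other spots was between -0.04 and 0.28. Its ratio was reached by 1, 4 and 8 of them in pigs 1, 2 and 4, by 0 and 7 in pigs 5 and 8, and by 35 and 42 in pigs 6 and 7, where it was below Sd. The part of the place on the array in the values of KCNJ5 and ADRA2B was not tested.

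Of the adrenergic receptors ADRA2A, ADRB1 and ADRB3, 0 passed the thresholds in any comparison in limma, and 1, ADRB1, had an unadjusted p under 0.05. ADRA2A, the alpha-2 receptor of many sympathetic targets, had 0.25 (SE 0.17) in YOd/Sd and 0.16 (SE 0.38) in WOd/Sd. Its log2 ratios in the WOd pigs ranged from -1.40 in pig 8 to 0.99 in pig 5. ADRB1, a Gs-coupled receptor best known from the heart, had 0.49 (SE 0.18) in YOd/Sd and 0.31 (SE 0.19) in WOd/Sd. It was above Sd in 6 of 7 pigs, with a log2 fold change of 0.38 (SE 0.13) over all of them, which is below the 1.5-fold threshold.

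ADRB3, known from fat cells, had 0.15 (SE 0.14) in YOd/Sd and was above the floor on 6 arrays. ADRA1A was above the floor on 1 array and ADRA1D on none, so neither was tested.

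**Figure D5:**
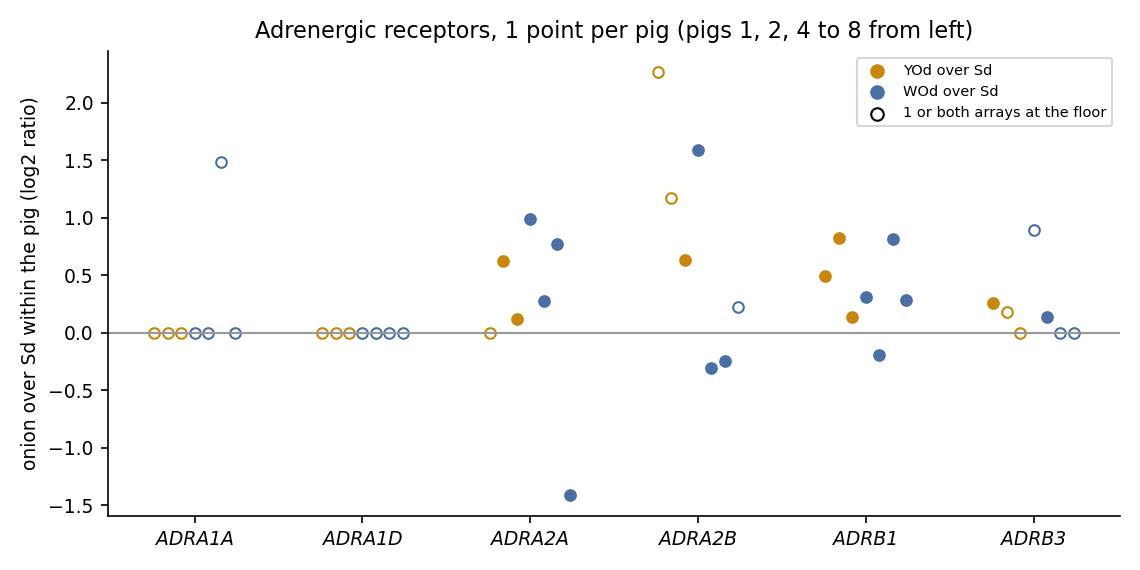
Log2 ratio of onion over Sd for 6 adrenergic receptor genes with a named probe, with 1 point per pig in the order 1, 2, 4, 5, 6, 7 and 8 from the left (YOd orange, WOd blue, open where 1 or both arrays were at the floor). ADRA2B has the highest point, 2.27 in pig 1, where Sd was at the floor.

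Of the 16 inward rectifier channel genes, KCNJ5 and KCNJ2 had a named probe. KCNJ2, which sets the resting potential of muscle cells, was above the floor on 2 arrays and was not tested. The partners with which KCNJ5 forms channels were not analysed here. Of 6 other potassium channel genes tested, 1 was called raised in YOd/Sd, beside 3.59% of all genes. In limma 0 were called in WOd/Sd and over the 7 pigs (0.782% and 0.958% of all genes), where 0 and 1 had an unadjusted p under 0.05. The latter was KCNA2, with a log2 fold change of 0.35 (SE 0.12) over the 7 pigs. The gene called in YOd/Sd was KCNMB1, a subunit of the calcium-activated channel of smooth muscle. Its log2 fold change was 0.59 (SE 0.16) in YOd/Sd and -0.51 (SE 0.32) in WOd/Sd. Without pig 2 it had 0.43 in YOd/Sd and was not called.

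Of 29 genes for G protein subunits, 7 had a named probe, and no beta subunit was among them. Of GNAI2 and GNAI3 (alpha subunits of Gi), GNAS (Gs), GNAQ, GNA11 and GNA14 (Gq family) and GNG12 (a gamma subunit), 6 were tested in limma and 0 called in each comparison, with 0 at an unadjusted p under 0.05. Their log2 fold changes lay between -0.17 and 0.27 in YOd/Sd and between -0.19 and 0.19 in WOd/Sd. Among the 4 genes that end G protein signals (RGS2, RGS4, RGS5 and GRK2), the 4 of cAMP breakdown and response (PDE3A, PDE4A, PDE4B and PRKAR1A) and PNMT, MAOA and MAOB, which make or break down catecholamines, 0 were likewise called, with 0 at an unadjusted p under 0.05. The first 4 lay between -0.10 and 0.25 in YOd/Sd and between -0.09 and -0.02 in WOd/Sd. The cAMP genes lay between -0.31 (PDE3A) and 0.27 in YOd/Sd and between -0.36 (PDE4B) and 0.20 in WOd/Sd. The catecholamine genes lay between 0.01 and 0.16 in YOd/Sd and between -0.26 (PNMT) and 0.15 in WOd/Sd. Of 9 other Gi-coupled receptors tested in YOd/Sd, 1 was called raised, beside 3.59% of all genes. It was SSTR3, a somatostatin receptor, with a log2 fold change of 0.69 (SE 0.22). In WOd/Sd it had 0.33 (SE 0.24), and without pig 1 it had 0.39 in YOd/Sd and was not called.

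In epithelial ion transport, the process that alpha-2 receptors act on in the gut, 8 genes were tested and 1 was called, a lowered one, in YOd/Sd and over the 7 pigs. Of all genes, 0.939% were called lowered in YOd/Sd, 0.412% in WOd/Sd and 0.292% over the 7 pigs. SLC26A3, the chloride and bicarbonate exchanger of the apical membrane, fell in YOd/Sd by 2.18 on the log2 scale (SE 0.72) and over the 7 pigs by 1.37 (SE 0.53). Its ratio was below 0 in 5 of 7 pigs, with -3.85 in pig 1 and -3.00 in pig 4 but 0.31 in pig 2. With pigs 1 and 4 only, so without the YOd pig in which it rose, SLC26A3 had -3.43 in YOd/Sd. There it passed the adjustment (limma adjusted p = 0.00067, beside 0.386 with all 3 pigs), which is no added support. In YOd/Sd the call was lost without pig 1 (-1.35) and without pig 4 (-1.77), and over the 7 pigs without pig 1, 4, 5 or 8 (-0.95 to -1.36). CFTR and the sodium pump subunit ATP1B1 were not called. Nor was the sodium-glucose transporter SLC5A1, which is among the enterocyte markers above. Its values, like the sum of those markers, followed the scaling of the arrays, so its test cannot decide whether its level changed.

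Markers of enteroendocrine cells, the hormone cells of the mucosa, were higher in part of the same comparison. Of 7 measured, the hormone genes CCK, GHRL and MLN were raised in YOd/Sd, with log2 fold changes of 0.92 (SE 0.27), 0.95 (SE 0.28) and 1.82 (SE 0.56). These are 3 of 7, where 3.59% of all genes were called raised. CHGA, CHGB, GCG and SST were not called, and the median of the 7 was 0.33 beside 0.14 over all genes. GCG went the other way, with -0.29 (SE 0.15) in YOd/Sd, above Sd in 0 of 3 pigs. None of these 7 markers was at the floor on all arrays. MLN was near it, above the floor on 12 arrays, with log2 values of -4.14, -3.82 and -2.66 on Sd of pigs 1, 2 and 4. It was above Sd in 2 of 3 YOd pigs, so the size of its fold change rests on dim spots. Their summed signal was 17.9 to 43.9 times the 75th percentile on Sd arrays, 31.6 to 69.3 times on YOd arrays and 22.3 to 46.0 times on WOd arrays. In YOd/Sd, CCK, GHRL and MLN were not called without pig 1 (0.60, 0.61 and 1.08) or without pig 4 (0.84, 0.88 and 1.65). With no scaling between arrays, CCK (0.61) and GHRL (0.64) were not called, while MLN (1.51) was. Pig 2 had the lowest log2 ratios of the YOd pigs for CCK, GHRL and MLN, 0.12, 0.12 and -0.01. With pigs 1 and 4 only, CCK, GHRL and MLN had 1.31, 1.36 and 2.73. There they passed the adjustment (limma adjusted p = 0.0190, 0.0188 and 0.0038, beside 0.386 with all 3 pigs). As this leaves out the pig that differed, it is no added support. GHRL and MLN were also raised over the 7 pigs, by 0.59 (SE 0.20) and 1.23 (SE 0.39), where 0.958% of all genes were, GHRL not without pig 1, 4 or 5 (0.41 to 0.54).

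Of 13 neuron markers 3 were measured, UCHL1, CHAT and STMN2, and the last was at the floor on all arrays. On Sd arrays UCHL1 had a mean log2 value of -2.18 and CHAT of -4.14, so their sum rests mainly on UCHL1. In YOd/Sd the log2 fold change was 0.82 (SE 0.40) for UCHL1 but -0.16 (SE 0.23) for CHAT. In WOd/Sd it was -0.93 (SE 0.55) for UCHL1, and CHAT was not tested. The summed signal of the 3 markers was 0.170 to 0.582 times the 75th percentile on Sd arrays. It was 0.182 to 0.629 times on YOd arrays and 0.0979 to 0.451 times on WOd arrays. Within the YOd pigs 1, 2 and 4, the log2 ratio of this sum was 1.499, 0.112 and 0.097. Within the WOd pigs 5 to 8 it was, in order, 0.604, -1.323, -1.769 and 0.199. These ratios had the sign of ADRA2B in each pig, but not that of KCNJ5 in pigs 6 and 7. This match was picked out after the values were seen. No marker of crypt and dividing cells, goblet cells, smooth muscle, endothelium, lymphocytes, macrophages or mast cells was called in any comparison, and no tuft cell marker was measured. The part of these cell types in the values of KCNJ5 and ADRA2B was not tested.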

How the data were processed

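Scanner files of 14 arrays (1 colour, Cy3) were used. The authors deposited spot intensities from Feature Extraction 10.7.3.1 (processed signal, median pixel, local background). They also deposited processed log2 values, centred per probe, for which the submitters' notes name RMA. In that log2 table KCNJ5 and ADRA2B were at their lowest value on 7 and 10 of 14 arrays, and it served as an alternative only. Outlier spots were left out and spots of a probe averaged. Probes were named through RefSeq accessions and the Sscrofa11.1 gene table, used for names only, which matched 6686 of 43603 probes. Other probes were not named here, nor does the S3 Table name either gene. The brightest probe stood for a gene. Tested were genes that exceeded the floor on as many arrays as the smaller group held.

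The fits used limma 3.58.1 (R 4.3.3) and took the pig as a block, since both arrays came from the same animal. Checked over 19559 probes, the deviations of a pig's 2 arrays from their group means had an r of 0.311 to 0.790. The fits were tested on simulated data. Other steps used Python 3.11.15. The genes and lists were chosen with earlier results of these data known. Named are KCNJ5 and ADRA2B, measured adrenergic receptors and inward rectifier channels, members of other lists past the thresholds, further members named to show what a list held, and the 5 genes most like each. A_72_P082091 and A_72_P410543 were singled out after their values were seen. Alternatives covered the scaling, the background correction (on the median pixel, as the files hold no mean), the floor, the filter, the probe of a gene, the authors' values, the pig block, the slide and each pig left out. Some members of the lists are not reported here.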

Additional observations from a re-analysis of the deposited data

How the results depend on the processing

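KCNJ5 and ADRA2B kept their direction under the alternatives in every comparison, with 1 exception: without pig 5, ADRA2B in WOd/Sd was -0.11 in place of 0.32. The log2 fold change of ADRA2B in YOd/Sd was 2.21 without a floor and with a floor at the 20th percentile, since Sd of pigs 1 and 2 was below the usual floor. With normexp and its offset of 50, which draws the ratios of dim spots towards 0, KCNJ5 in WOd/Sd was 0.29 and no longer past the thresholds. With each pig left out in turn, KCNJ5 ranged from 0.98 to 1.71 in YOd/Sd, from 0.53 to 0.75 in WOd/Sd and from 0.76 to 1.04 over the 7 pigs. ADRA2B ranged from 0.90 to 1.72, from -0.11 to 0.52 and from 0.51 to 0.94. KCNJ5 in WOd/Sd missed the thresholds without pig 6, and ADRA2B over the 7 pigs missed them without pig 1, 2 or 5, without scaling and with normexp, as KCNJ5 did over the 7 pigs with normexp. The authors' processed values could not be used for ADRA2B in WOd/Sd and over the 7 pigs or for KCNJ5 in WOd/Sd, where too few arrays were above their lowest value. In these values KCNJ5 had 0.63 in YOd/Sd, and missed the thresholds with 0.39 over the 7 pigs, as ADRA2B did with 0.54 in YOd/Sd.

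The counts of genes called moved more. In YOd/Sd it was 111, and it was 63 with quantile normalisation, 65 with normexp, 64 with the filter on probes well above background, 1303 when every probe was counted and 62 with the authors' values. In WOd/Sd it was 29, and 12 with normexp, 62 without a floor, 54 with the 20th percentile floor and 327 for every probe. Over the 7 pigs it was 30, and 16 without scaling, 51 without a floor, 48 with the 20th percentile floor, 216 for every probe and 19 with the authors' values. With 1 pig left out, the counts were 56 to 327, 44 to 87 and 18 to 49. Without scaling, the 102 genes called in YOd/Sd held 7 raised ones, where the 111 held 88, and the 16 over the 7 pigs held 4, where the 30 held 23. No gene passed the adjustment in limma under any alternative but those without pig 2 (77 in YOd/Sd), without pig 7 (2 in WOd/Sd) and without both (14 over the remaining pigs). The 327 came without pig 2, the 87 and the 49 without pig 7 and the 18 without pig 1. Without the replicate block for the pig, 20, 10 and 10 genes were called in the 3 comparisons, and KCNJ5 in WOd/Sd no longer was. With the slide and the pig as blocks the counts were 327, 87 and 78, as this leaves out pigs 2 and 7, whose arrays lay on different slides. Both probes lay near the background on several Sd arrays, which limits the size of every fold change. Of the list genes reported as called in YOd/Sd, CCK, GHRL and SSTR3 lost their call in 4 of 14 alternatives each, MLN in 5, SLC26A3 in 6 and KCNMB1 in 8, with their direction kept. Over the 7 pigs, MLN lost it in 1, SLC26A3 in 6 and GHRL in 9 of 18.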
